A study of Mus with 9 samples.

Results

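The macrophage genes described here are Adgre1, Csf1r, Cd14, Mrc1, Cd163, Cd68, Lyz2, Trem2 and Gpnmb. They were chosen by gene symbol as established markers of macrophages, and are 9 of the 54532 genes in the table. Kidney RNA of 9 male C57BL/6 mice was sequenced, with 3 mice in each of the groups 18 mo, 21 mo and 21 mo/O304. One kidney had been removed from every mouse at 18 months of age, so no group had both kidneys. The 18 mo mice were killed 1 week after that surgery. The 21 mo mice were then injected intraperitoneally with saline every day for 12 weeks, and the 21 mo/O304 mice with O304 at 10 mg/kg/day for the same time. The compound O304 activates AMPK, the kinase that senses low cellular energy. In any comparison with the 18 mo mice, age, time since nephrectomy and the injections differ at once and cannot be told apart.

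Macrophages are phagocytes that live in every tissue and are replenished in part by blood monocytes. In the kidney, resident macrophages lie between the tubules, clear debris and immune complexes, and are joined by monocyte-derived cells after injury. Their survival depends on signals through the Csf1 receptor, and they adapt to their surroundings by changing the levels of scavenger receptors, pattern receptors and lysosomal proteins. RNA of whole kidney was measured. More macrophages, more RNA of these genes per cell, RNA of these genes from other cells and loss of other cells cannot be told apart.

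The genes fall into 4 roles, and their positions are those of the authors' table, in the mouse build GRCm38. The surface receptors were Adgre1 (chr17:57358691-57483527, plus strand), which encodes F4/80, Csf1r (chr18:61105572-61132149, plus strand), the receptor for Csf1 and Il34, and Cd14 (chr18:36725074-36726736, minus strand), a co-receptor for lipopolysaccharide. The endocytic and scavenger receptors were Mrc1 (chr2:14229392-14332057, plus strand), the mannose receptor, and Cd163 (chr6:124304656-124330527, plus strand), which takes up hemoglobin bound to haptoglobin. Lysosomal and secreted proteins were represented by Cd68 (chr11:69664213-69666153, minus strand), a lysosomal membrane glycoprotein, and Lyz2 (chr10:117277331-117282321, minus strand), lysozyme. Trem2 (chr17:48346401-48354147, plus strand), a lipid-sensing receptor, and Gpnmb (chr6:49036546-49070929, plus strand), a glycoprotein of stressed lysosomes, mark macrophages that handle lipid and debris. The span of Csf1r overlaps Hmgxb3 on the other strand, and the strand setting of the counting is not given in the sources used here, so its counts are less certain. Lyz2 has a close copy, Lyz1, whose counts came to between 0 and 1.91% of those of Lyz2 in the 9 libraries.

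All 9 genes passed the filter on low counts, as did 15902 genes in all. Cd163 passed through the 21 mo and 21 mo/O304 groups, since none of its 18 mo libraries reached 10 counts, and Gpnmb reached 10 counts in 1, 2 and 2 libraries of the groups in the order given above. Total counts ranged from 15636378 to 18396725 per library, at which 1 count was worth between 0.0458 and 0.0669 CPM (counts scaled to a common library size, with TMM factors).

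Levels between genes were compared as FPKM, which divides by gene length. In the 18 mo group, Lyz2 was highest at 87.6 ± 37.4 FPKM (SD, n = 3), and Csf1r followed at 12.97 ± 2.13 FPKM. Cd14 at 7.26 ± 2.19, Cd68 at 5.34 ± 1.62 and Adgre1 at 3.77 ± 1.24 FPKM came next, and each of these overlapped its neighbour in the order. Mrc1 at 0.804 ± 0.156 and Trem2 at 0.313 ± 0.110 FPKM each stood apart, while Gpnmb at 0.0494 ± 0.0378 and Cd163 at 0.0317 ± 0.00905 FPKM overlapped at the bottom. In the 21 mo group only Lyz2, at 783 ± 726 FPKM, stood in a range of its own, and each of the other 8 overlapped its neighbours in the order. With O304, Lyz2 (179 ± 14.5 FPKM), Csf1r (13.03 ± 2.47 FPKM) and Cd14 (9.46 ± 0.0819 FPKM) each stood in a range of its own. Lyz2 alone made up between 70.05% and 90.0% of the summed FPKM of the 9 genes in each library.

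**Figure D1:**
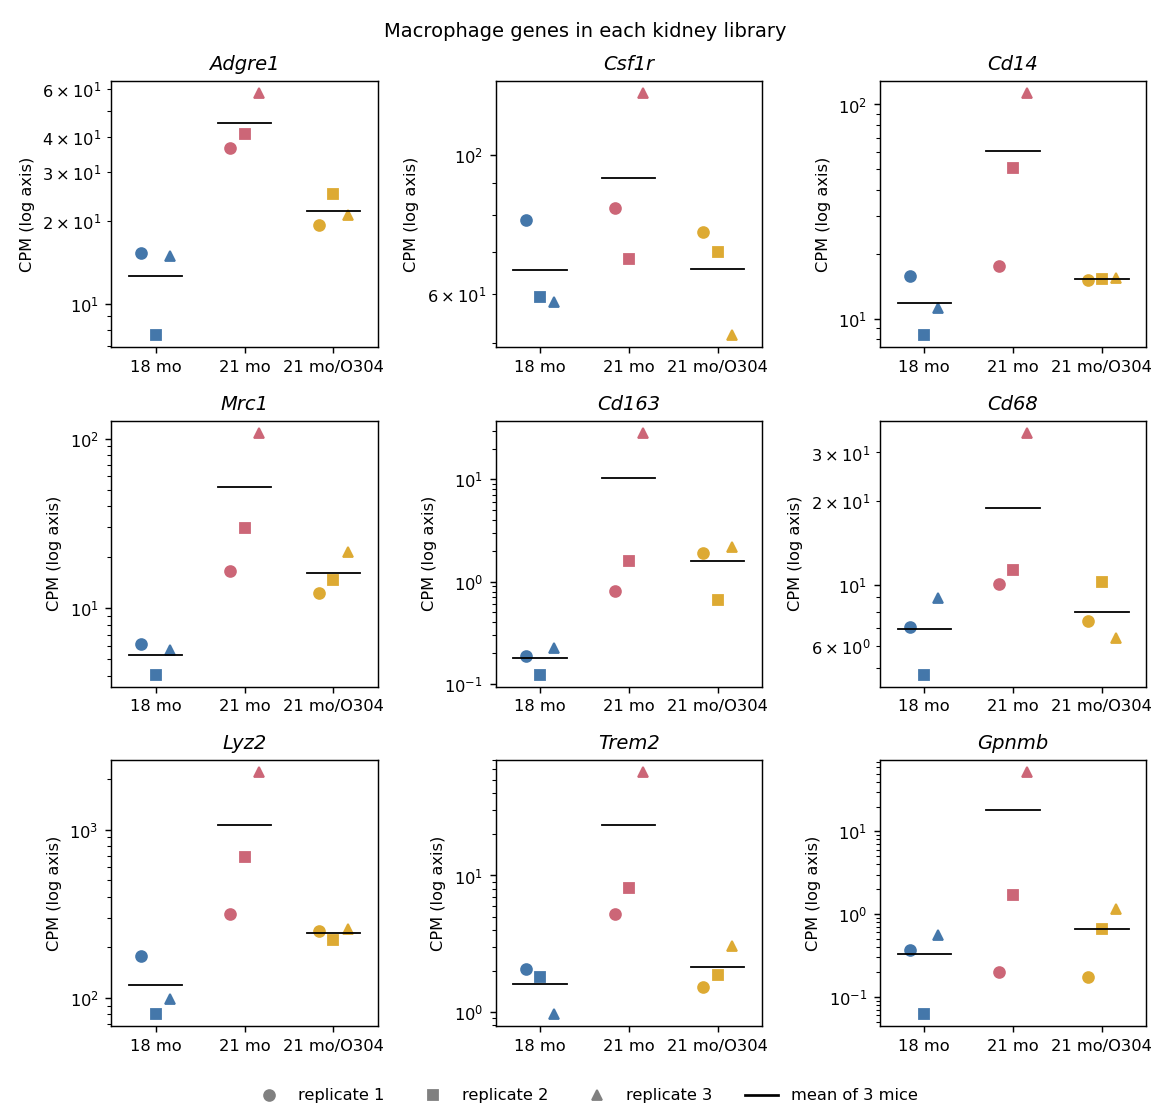
Level of each macrophage gene as CPM on a log axis, with 1 symbol per mouse shaped by its replicate number, and the mean of 3 mice as a bar. Replicate 3 of the 21 mo group was the highest of the 9 libraries for each gene, and Adgre1, Lyz2, Mrc1 and Cd163 of the 21 mo/O304 mice lay above all 18 mo mice.

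The kidneys of the 21 mo group were unlike each other. Libraries of that group correlated with r between 0.881 and 0.956 over the genes tested, against 0.976 to 0.983 in the 18 mo group and 0.972 to 0.978 with O304. Replicate 3 of the 21 mo group stood apart, and the counts of calls and the fold changes of the 9 genes that use it are also given without it. The 8 proximal tubule markers summed to 1581 CPM in that library and to between 5540 and 13476 CPM in the others. The 8 injured tubule markers (Havcr1, Lcn2 and others) summed to 433, 3027 and 4715 CPM in 21 mo replicates 1, 2 and 3, against 389 to 492 CPM in the 18 mo group and 427 to 577 CPM with O304. The 8 fibroblast markers summed to 163, 599 and 1513 CPM in the same 3 libraries, against 203 to 306 CPM at 18 mo and 125 to 312 CPM with O304. The 8 general leukocyte markers summed to 341, 285 and 578 CPM in the 21 mo libraries, above the 171 to 227 CPM of the 18 mo group, and to between 230 and 340 CPM with O304. At an unadjusted p under 0.05, 8 of 8 injured tubule, 4 of 8 fibroblast and 8 of 8 leukocyte markers were higher and 3 of 8 proximal tubule markers lower at 21 mo than at 18 mo, against 14.0% and 12% of all genes tested, and no marker of these lists was at 0 in a whole group. Leaving out 21 mo replicate 3, the counts were 7, 1 and 6 higher and 4 lower, against 10% and 12.1% of all genes. The macrophage genes were high together with the injured tubule and fibroblast lists in 21 mo replicates 2 and 3. The exception was Csf1r in replicate 2, at 68.3 CPM within the 18 mo range of 58.3 to 78.7 CPM. In 21 mo replicate 1 the injured tubule sum was within the 18 mo range and the fibroblast sum below it. Each of the 9 genes but Gpnmb was above all 18 mo libraries there, by little for Csf1r (82.1 against at most 78.7 CPM), Cd68 (10.03 against 8.99) and Cd14 (17.7 against 15.7). The part of these lists in the results was not tested.

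**Figure D2:**
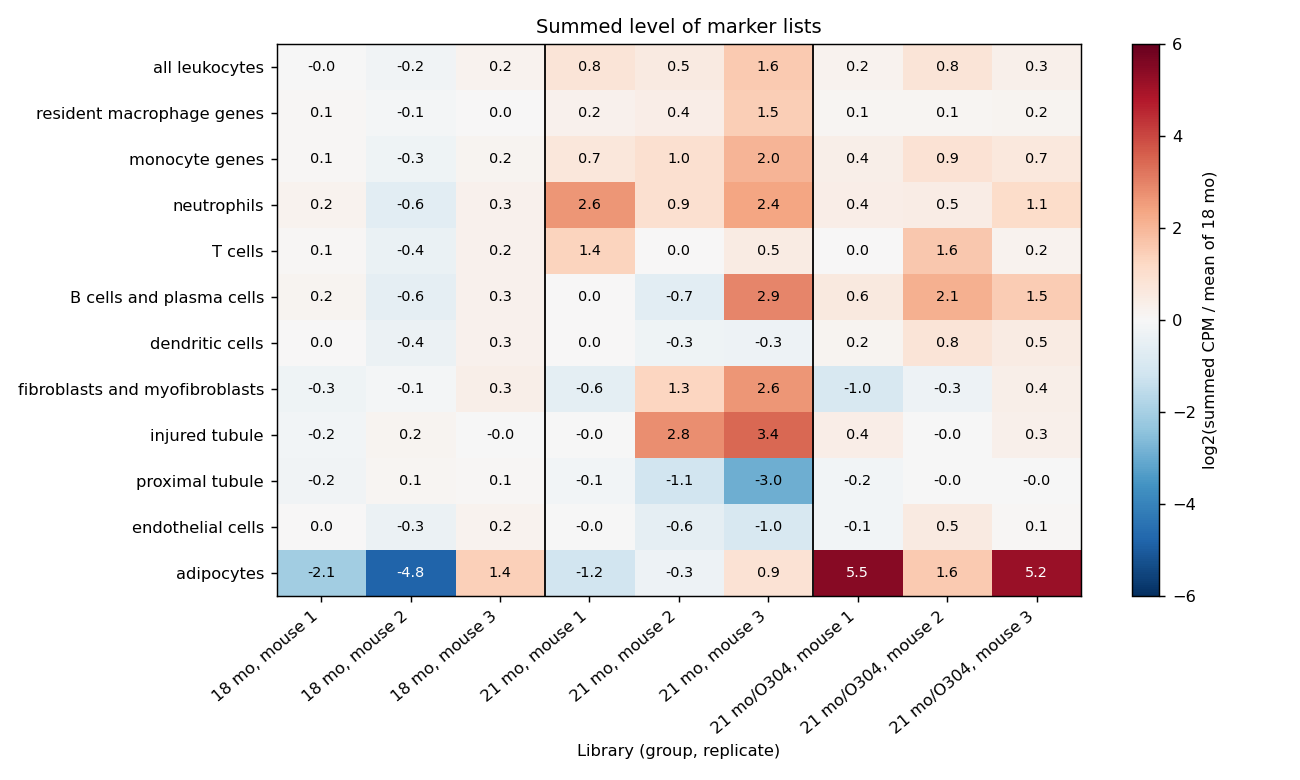
Summed CPM of each marker list in each library, as the log2 ratio to the mean of the 18 mo libraries, with the value printed in each cell. The injured tubule and fibroblast lists were high in 21 mo replicates 2 and 3, the proximal tubule list was lowest in 21 mo replicate 3, and the adipocyte list was high in 21 mo/O304 replicates 1 and 3.

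The first comparison asks how the macrophage genes differed between 21 mo and 18 mo kidneys. All 9 had a higher mean in the 21 mo group, and for 7 of them (all but Csf1r and Gpnmb) no 21 mo library overlapped an 18 mo library, where 13.5% of all genes tested were higher without overlap. None of the 9 had an adjusted p under 0.05 in edgeR's quasi-likelihood test, a threshold that 0.0189% of all genes (3 genes) passed. The smallest adjusted p was 0.0626, for Adgre1, Mrc1 and Lyz2. At an unadjusted p under 0.05, 8 of the 9 were higher (all but Csf1r), against 14.0% of all genes tested. Cd163 is among these 8 and the 7 without overlap, but passed the filter through the later groups alone, which favoured that direction. The same holds where Cd163 is counted as higher than at 18 mo below. DESeq2 gave an adjusted p to 8 of the 9 and called 7 of them higher, against 6.59% of all genes it tested. Limma voom with sample quality weights called 8 higher, against 26.3% of all genes. The median log2 fold change of the 9 was 3.16, against 0.03 for all genes.

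The count of calls depended on which 21 mo mouse was left out. Without replicate 3, where the macrophage genes were highest, Adgre1, Mrc1 and Lyz2 rose with adjusted p = 0.0481, 0.0436 and 0.0483, against 0.806% of all genes. In that fit 6 of 9 were higher at an unadjusted p under 0.05, against 10% of all genes, and the median of the 9 was 1.60. Without replicate 1, where 8 of the 9 genes (all but Csf1r) were lowest within the group, 8 of 9 rose with an adjusted p under 0.05, all but Csf1r, against 13.6% of all genes. The exact permutation test of 3 mice against 3 cannot give a p under 0.1.

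The second comparison, 21 mo/O304 against 21 mo, addresses the effect of O304 in mice of 1 age. The mean of each of the 9 genes was lower with O304, but none had an adjusted p under 0.05 (0% of all genes did), and their adjusted p ran from 0.175 to 0.280. At an unadjusted p under 0.05, 8 were lower (all but Csf1r), against 12.4% of all genes. DESeq2 called 4 of the 8 that it gave an adjusted p lower, against 3.65% of all genes, and limma voom with quality weights called 5 of 9, against 19.8% of all genes. At that unadjusted threshold, 8.27% of all genes were higher with O304. Adgre1, Lyz2, Trem2 and Cd14 were lower in each O304 library than in each 21 mo library, where 10.5% of all genes were lower without overlap. The median log2 fold change was -1.98, against -0.02 for all genes. Without 21 mo replicate 3 these 4 genes were the ones lower at an unadjusted p under 0.05, against 6.95% of all genes, and the median was -0.55. Without 21 mo replicate 1, 8 of the 9 fell with an adjusted p under 0.05 (all but Csf1r), against 12.6% of all genes.

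The third comparison sets 21 mo/O304 against 18 mo. Lyz2, Adgre1, Mrc1 and Cd163 were higher in each O304 library than in each 18 mo library, where 13.2% of all genes were higher without overlap, while Csf1r, Cd14, Cd68, Trem2 and Gpnmb overlapped. No gene of the table passed an adjusted p under 0.05 in edgeR (0%), and DESeq2 on all 9 libraries and limma voom called none of the 9, where 0.294% and 1.04% of all genes were called higher. DESeq2 on the 6 libraries of these groups alone gave an adjusted p to 7 of the 9 and called Adgre1, Mrc1 and Lyz2 higher, against 2.53% of all genes. At an unadjusted p under 0.05, Adgre1 and Mrc1 were higher, against 4.33% of all genes. The library 21 mo replicate 3 enters this comparison only through the filter, the scaling and the shared estimate of spread. Without it, Lyz2, Adgre1, Mrc1 and Cd163 were higher at that threshold, against 7.10% of all genes. The 3 comparisons share groups, so their values are set side by side below.

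**Figure D3:**
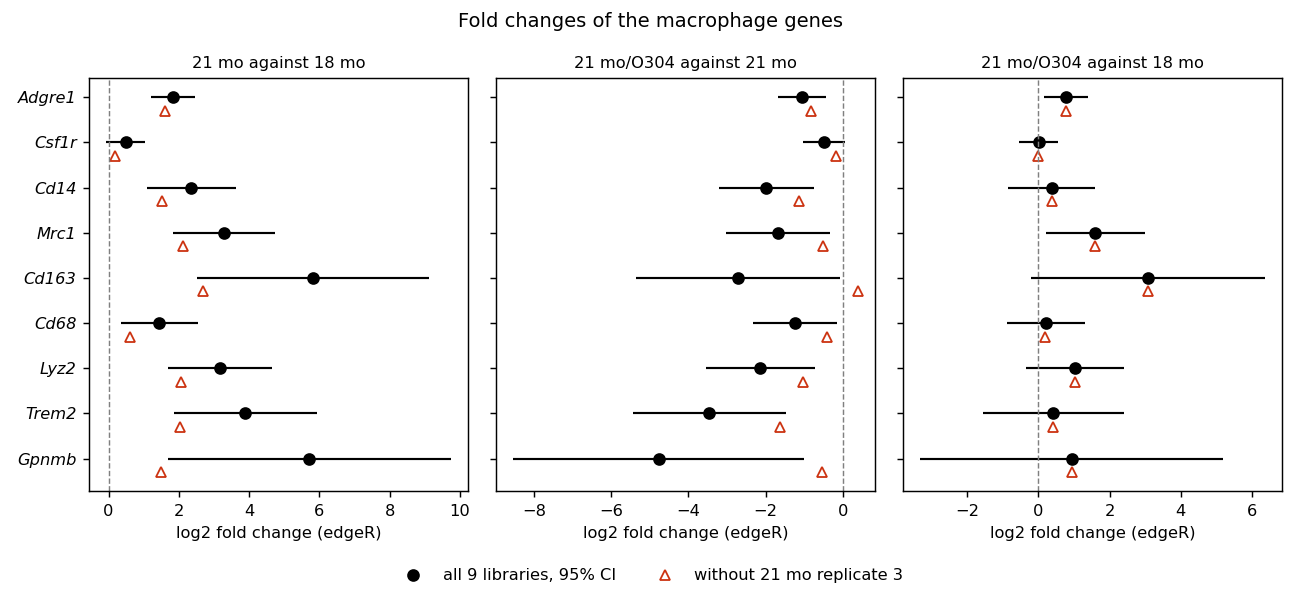
Log2 fold change of each macrophage gene in the 3 comparisons from edgeR, with the 95% confidence interval over all 9 libraries (filled circles) and the value without 21 mo replicate 3 (open triangles). The fold changes of Cd163, Trem2 and Gpnmb in the first panels moved most without that library, and that of Cd163 for O304 against 21 mo turned from -2.72 to 0.40.

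Adgre1, the F4/80 antigen used to recognise mouse macrophages, separated the 3 groups completely. It measured 15.2, 7.70 and 14.9 CPM in 18 mo replicates 1, 2 and 3, 36.7, 41.0 and 57.9 CPM in the 21 mo replicates, and 19.2, 25.0 and 20.9 CPM in the O304 replicates. The lowest 21 mo library was above the highest O304 library, and the lowest O304 library was above all 18 mo libraries. The 21 mo mean was 3.58-fold that of 18 mo (log2 1.84 ± 0.28 SE, adjusted p = 0.0626). With O304 the log2 fold change against 21 mo was -1.06 ± 0.27 (SE, adjusted p = 0.175), and against 18 mo it was 0.78 ± 0.27 (adjusted p = 0.440). Adgre1 depended least on 21 mo replicate 3 among the genes with no overlap, with log2 1.60 against 18 mo and -0.83 for O304 against 21 mo without it.

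Csf1r, on which macrophage survival depends, was the gene of the 9 with the smallest differences. Its level was 78.7, 59.3 and 58.3 CPM at 18 mo, 82.1, 68.3 and 125 CPM at 21 mo, and 75.2, 70.0 and 51.6 CPM with O304. The 3 groups overlapped, and 21 mo replicate 3 was the highest library. The log2 fold change was 0.49 for 21 mo against 18 mo (95% interval -0.06 to 1.04, adjusted p = 0.235), and 0.18 without replicate 3. With O304 against 21 mo it was -0.49 (95% interval -1.04 to 0.07, adjusted p = 0.280), and -0.19 without replicate 3 (adjusted p = 0.681). For O304 against 18 mo it was 0.005 (95% interval -0.55 to 0.56, adjusted p = 0.998).

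Cd14, the lipopolysaccharide co-receptor, was 15.7, 8.38 and 11.3 CPM at 18 mo and 17.7, 50.3 and 113 CPM at 21 mo. In the O304 mice it was 15.2, 15.4 and 15.4 CPM, an SD of 0.125 CPM (n = 3). The 21 mo mice were thus spread from just above the highest 18 mo library to far above it, whereas the O304 mice lay within the 18 mo range. The fold change for 21 mo against 18 mo was 5.12 (log2 2.36 ± 0.56 SE, adjusted p = 0.0716), and log2 1.51 without replicate 3 (adjusted p = 0.0837). For O304 against 21 mo it was log2 -1.98 ± 0.55 (SE, adjusted p = 0.175), and -1.14 without replicate 3 (adjusted p = 0.278).

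Mrc1, the mannose receptor, measured 6.13, 4.07 and 5.66 CPM at 18 mo, 16.5, 29.8 and 108 CPM at 21 mo and 12.3, 14.6 and 21.3 CPM with O304. Both later groups were above every 18 mo library, and the highest O304 library lay within the 21 mo range. The log2 fold change for 21 mo against 18 mo was 3.29 ± 0.65 (SE, adjusted p = 0.0626), a 9.76-fold difference, and 2.11 without replicate 3. For O304 against 18 mo it was 1.60 ± 0.62 (SE, adjusted p = 0.469), and for O304 against 21 mo -1.69 ± 0.60 (SE, adjusted p = 0.192). Without 21 mo replicate 3 the last value was -0.52, so most of that difference came from 1 library, while the difference between O304 and 18 mo stayed at 1.59.

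Cd163, the haptoglobin-hemoglobin receptor, was close to the counting limit at 18 mo, with 3, 2 and 4 counts. It had 12, 28 and 626 counts at 21 mo (0.803, 1.59 and 28.7 CPM) and 33, 11 and 34 counts with O304 (1.92, 0.656 and 2.16 CPM). All later libraries were above all 18 mo libraries, and 626 of the 666 counts of the 21 mo group came from replicate 3. Pooled over mice and scaled by library size, the ratio of 21 mo to 18 mo was 68.1 (95% exact interval 35.7 to 150, counting error only), and that of O304 to 18 mo was 8.73 (4.37 to 19.8). edgeR's log2 fold change for 21 mo against 18 mo was 5.80 ± 1.46 (SE, adjusted p = 0.0775), and 2.68 without replicate 3 (adjusted p = 0.0818). For O304 against 21 mo the value was -2.72 ± 1.17 (SE, adjusted p = 0.234) with all libraries, but 0.40 (adjusted p = 0.785) without replicate 3, a change of sign. Among the O304 mice, Cd163 was higher in replicates 1 and 3, the libraries in which the 8 adipocyte markers summed to 150 and 123 CPM, than in replicate 2, where they summed to 10.3 CPM. In the 18 mo and 21 mo groups the adipocyte sum was between 0.123 and 9.33 CPM, and its part in the Cd163 level was not tested.

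Cd68, found in the lysosomes of all macrophages, was 7.06, 4.74 and 8.99 CPM at 18 mo, 10.03, 11.3 and 35.4 CPM at 21 mo and 7.39, 10.2 and 6.43 CPM with O304. Replicates 1 and 2 of the 21 mo group were just above the highest 18 mo library. The log2 fold change against 18 mo was 1.45 ± 0.49 (SE, adjusted p = 0.114), and 0.60 without replicate 3 (adjusted p = 0.261). For O304 it was -1.24 ± 0.48 against 21 mo (SE, adjusted p = 0.208) and 0.21 ± 0.48 against 18 mo (SE, adjusted p = 0.933). Without replicate 3 the difference between O304 and 21 mo was -0.41 (adjusted p = 0.545).

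Lyz2, the lysozyme of macrophages, monocytes and neutrophils, was the most abundant of the 9. The libraries gave 179, 80.4 and 98.7 CPM at 18 mo, 317, 691 and 2197 CPM at 21 mo, and 252, 221 and 257 CPM with O304. As with Adgre1, the 3 groups did not overlap, with the O304 mice between the other groups. The 21 mo mean was 8.96-fold that of 18 mo (log2 3.16 ± 0.66 SE, adjusted p = 0.0626), and the log2 value was 2.06 without replicate 3 (adjusted p = 0.0483). For O304 against 21 mo the log2 fold change was -2.13 ± 0.63 (SE, adjusted p = 0.175), and -1.04 without replicate 3 (adjusted p = 0.288). Against 18 mo it was 1.03 ± 0.61 with O304 (SE, adjusted p = 0.629). The 10 neutrophil markers summed to 68.0, 20.9 and 56.8 CPM in 21 mo replicates 1, 2 and 3, against 7.02 to 13.01 CPM at 18 mo and 14.5 to 23.3 CPM with O304. Lyz2 was lowest of the 21 mo libraries in replicate 1, where that sum was highest, and the part of neutrophils in the Lyz2 level was not tested.

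Trem2, the lipid-sensing receptor that signals through Tyrobp, had 33, 29 and 17 counts at 18 mo (2.04, 1.79 and 0.962 CPM). At 21 mo it had 78, 143 and 1249 counts (5.22, 8.13 and 57.2 CPM), and with O304 26, 31 and 48 counts (1.51, 1.85 and 3.06 CPM). Every 21 mo library was above every other library, and the 18 mo and O304 ranges overlapped. The log2 fold change was 3.88 ± 0.90 for 21 mo against 18 mo (SE, adjusted p = 0.0697) and -3.46 ± 0.88 for O304 against 21 mo (SE, adjusted p = 0.175). Without replicate 3 the values were 2.05 (adjusted p = 0.0625) and -1.63 (adjusted p = 0.240). For O304 against 18 mo the value was 0.42, with a 95% interval of -1.57 to 2.41.

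Gpnmb, which is induced when lysosomes are stressed, was seen at a high level in 1 mouse. Counts were 6, 1 and 10 at 18 mo, 3, 30 and 1135 at 21 mo and 3, 11 and 18 with O304. In CPM, 21 mo replicate 3 reached 52.0, the other 21 mo libraries 0.201 and 1.70, and no library of the other groups more than 1.15. The 21 mo and 18 mo groups overlapped (exact permutation test, two-sided p = 0.3). The log2 fold change of 5.71 ± 1.78 (SE, adjusted p = 0.101) was 1.49 (adjusted p = 0.427) without replicate 3. For O304 against 21 mo it moved likewise from -4.78 ± 1.66 (SE, adjusted p = 0.189) to -0.55 (adjusted p = 0.828).

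**Figure D4:**
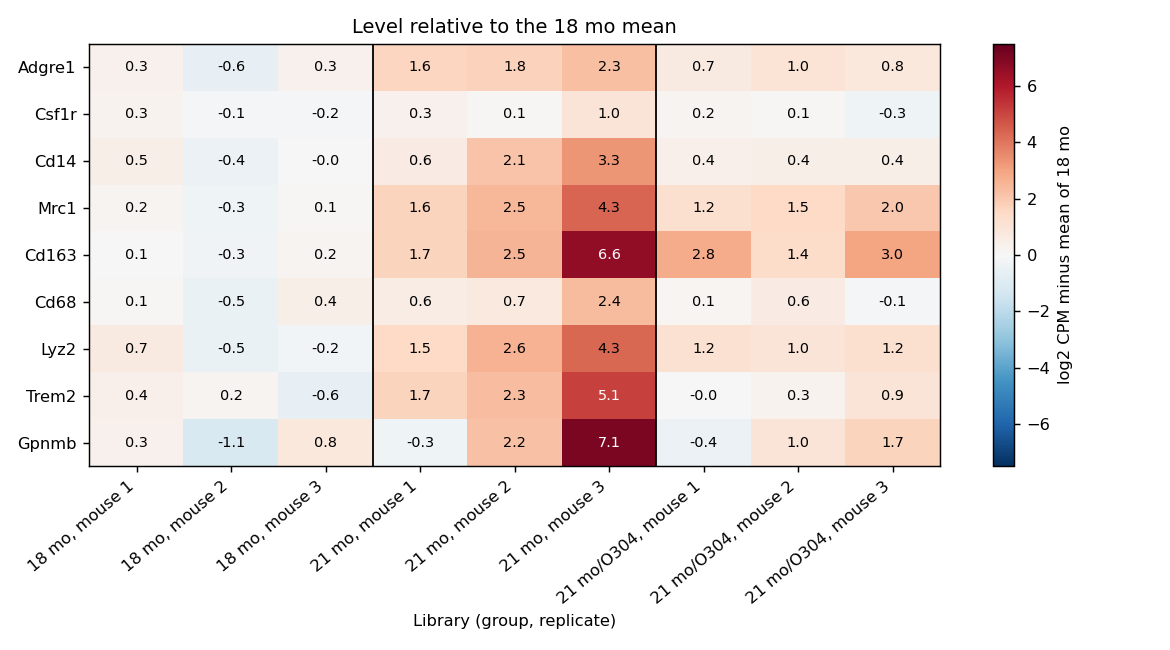
Log2 CPM of each macrophage gene in each library minus the mean of the 18 mo libraries, with the value printed in each cell. In 21 mo replicate 3 the rows run from 1.0 for Csf1r to 7.1 for Gpnmb, whereas in 21 mo replicate 1 they run from -0.3 to 1.7.

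The size of the difference varied between the 9 genes and between mice. To describe this, each gene was divided by Adgre1 in the same library and set against the mean log2 ratio of the 18 mo libraries, with no test. Relative to Adgre1, Csf1r was lower in all 3 libraries of the 21 mo group, by log2 ratios of -1.25, -1.68 and -1.30, and in the O304 libraries by -0.45, -0.93 and -1.11. The 18 mo libraries themselves lay between -0.46 and 0.51. In 21 mo replicate 3, by contrast, the ratio to Adgre1 was up by 4.81 for Gpnmb, 4.37 for Cd163, 2.87 for Trem2, 2.10 for Mrc1, 2.04 for Lyz2 and 1.04 for Cd14, and was 0.13 for Cd68. In 21 mo replicate 1 the ratios of Mrc1 (0.05), Cd163 (0.06), Trem2 (0.11) and Lyz2 (-0.10) were close to the 18 mo mean, although Adgre1 itself was 36.7 CPM there. Those of Gpnmb (-1.89), Cd68 (-1.02) and Cd14 (-0.97) were below it, as was that of Csf1r. The 18 mo ratios of Cd163 rest on 3, 2 and 4 counts. Among the O304 libraries, Cd163 had ratios of 2.14, 0.36 and 2.18 and Mrc1 of 0.55, 0.42 and 1.22, all above the 18 mo mean. Those of Cd14 (-0.26, -0.62 and -0.36) and Cd68 (-0.53, -0.45 and -0.85) were below it. The 18 mo libraries themselves ran from -0.325 to 0.199 for Cd14 and from -0.261 to 0.15 for Cd68. For Cd163 they ran from -0.283 to 0.356 and for Mrc1 from -0.188 to 0.292. Thus O304 replicate 1 lay within the 18 mo range for Cd14, and O304 replicate 2 at the top of the range for Cd163.

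**Figure D5:**
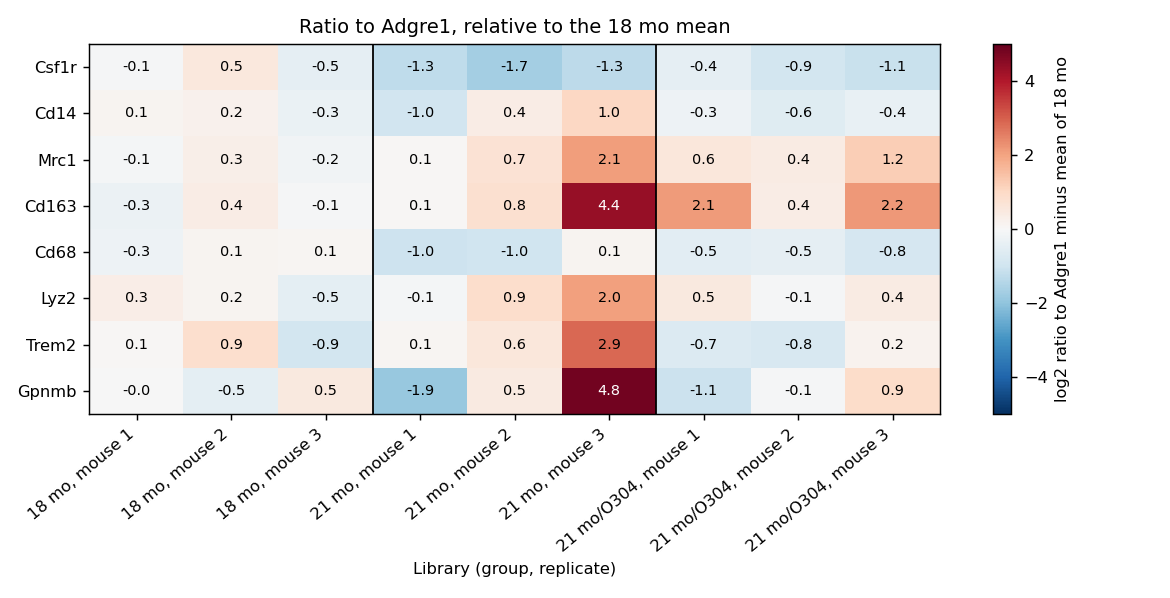
Log2 ratio of each of the other 8 genes to Adgre1 in each library, minus the mean of the 18 mo libraries, with the value printed in each cell. The Csf1r row is negative in all 6 later libraries, and the largest values, 4.8 for Gpnmb and 4.4 for Cd163, are in 21 mo replicate 3.

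Over the 9 libraries the log2 CPM of the 36 pairs of macrophage genes correlated with Pearson r between 0.645 and 0.974 (median 0.861). Without 21 mo replicate 3 the range was -0.311 to 0.932 and the median 0.631, over 8 libraries. The points share the group differences and the library that stands apart, so these values describe the libraries and carry no test. Among the protein-coding genes tested, the 8 most like the mean of the 9 macrophage genes were Rps4x, C1qb, Rps3a1, Fcgr3, Rpl7, Rpl26, Rps15a and P2ry6, with r from 0.987 to 0.991 over 9 libraries and from 0.952 to 0.975 without 21 mo replicate 3. C1qb, a chain of complement C1q, and Fcgr3, an Fc receptor, are expressed by macrophages, while the Rps and Rpl genes encode ribosomal proteins of all cells. C1qb was 83.9, 59.8 and 80.6 CPM at 18 mo, 118, 151 and 447 CPM at 21 mo and 87.5, 92.0 and 91.2 CPM with O304. An r of at least 0.9 with that mean was reached by 549 of 13907 genes (3.95%). For single genes, the most alike were Ifi207 for Adgre1 (r = 0.989), Dtx4 for Cd68 (0.985), Myo1c for Csf1r (0.955), Eef1a1 for Mrc1 (0.991), Hes1 for Cd163 (0.989), Naca for Lyz2 (0.992), Milr1 for Trem2 (0.979), Emp3 for Gpnmb (0.988) and Cast for Cd14 (0.995). Next in likeness were Lpcat2 and 1700025G04Rik for Adgre1, Fcgr4 and Tnfsf13b for Cd68, Glt28d2 and Rab35 for Csf1r, Cd200r1 and Eif3e for Mrc1, and Smarce1 and Eif3l for Cd163. For Lyz2 they were Rpl23a and Cd300c2, for Trem2 Il1r2 and Fermt3, for Gpnmb Tuba1a and Fam57a, and for Cd14 Tceal9 and Capn2.

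The macrophage genes were then set beside 10 lists of genes that work with them and described beside the median log2 fold change of all genes (0.03 for 21 mo against 18 mo and -0.02 for O304 against 21 mo). No gene on them passed an adjusted p under 0.05 with all 9 libraries, so the counts below are at an unadjusted p under 0.05, to be read against 14.0% of all genes higher at 21 mo and 12.4% lower with O304.

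Of the 11 growth and lineage factors tested of 12, 5 were higher at 21 mo (median log2 0.77) and 4 were lower with O304 than at 21 mo (median -0.61). Csf1, the main ligand of Csf1r, was 16.2, 9.80 and 13.3 CPM at 18 mo, 8.16, 32.1 and 60.7 CPM at 21 mo and 9.83, 10.5 and 12.1 CPM with O304. Replicate 1 of the 21 mo group was the lowest of all libraries for Csf1, although its Adgre1 was above all 18 mo and O304 libraries. Runx1, a hematopoietic transcription factor, was 5.69, 14.0 and 31.7 CPM at 21 mo against 2.46 to 2.79 CPM at 18 mo (log2 2.69 ± 0.57 SE, adjusted p = 0.0630). Csf2rb (log2 1.67 ± 0.52 SE) and Spi1 (1.00 ± 0.39), the master factor of myeloid cells, had adjusted p = 0.101 and 0.152. The log2 values of Runx1, Csf2rb and Spi1 were 1.87, 0.71 and 0.35 without 21 mo replicate 3.

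Resident macrophage genes gave 8 of 12 tested (14 listed) higher at 21 mo (median 1.63) and with O304 7 lower and 1 higher (median -1.22). Fcgr1, a high-affinity Fc receptor, was 3.33 to 5.20 CPM at 18 mo, 10.8, 15.1 and 34.4 CPM at 21 mo and 6.51 to 8.22 CPM with O304. It had log2 2.14 ± 0.41 (SE, adjusted p = 0.0626) against 18 mo and rose without 21 mo replicate 3 (adjusted p = 0.0481). Aif1, which encodes Iba1, had log2 1.08 ± 0.22 (SE, adjusted p = 0.0626), and Siglec1 2.75 ± 0.59 (SE, adjusted p = 0.0631). Fcgr1, Aif1 and Siglec1 had log2 values of 1.49, 0.87 and 2.10 without that library. Mertk, the receptor for dying cells, differed in the other direction, with 39.8 to 43.1 CPM at 21 mo and 57.4, 74.0 and 51.8 CPM with O304 (log2 0.55 ± 0.15 SE, adjusted p = 0.175, and 0.58 without 21 mo replicate 3).

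Monocyte genes were higher at 21 mo for 5 of 9 tested of 10 (median 1.23), and 1 was lower with O304 (median -0.41). Ccr2, the receptor that draws monocytes out of the marrow, was 11.8, 14.3 and 18.6 CPM at 18 mo, 28.4, 37.1 and 23.0 CPM at 21 mo and 30.6, 39.3 and 26.9 CPM with O304. The 18 mo mice were below all later mice, the 21 mo and O304 mice overlapped, and 21 mo replicate 3 was the lowest of the 21 mo libraries. Its log2 fold change was 0.98 ± 0.24 for 21 mo against 18 mo (SE, adjusted p = 0.0718) and 0.13 ± 0.23 for O304 against 21 mo (SE, adjusted p = 0.751). These were 1.12 and -0.01 without 21 mo replicate 3. Plac8 was 30.7, 52.5 and 93.4 CPM at 21 mo and 15.7 to 26.2 CPM with O304 (log2 -1.42 ± 0.38 SE, adjusted p = 0.175, and -0.91 without that library). F13a1, Itgam and Vcan had log2 fold changes of 4.21, 2.43 and 1.93 for 21 mo against 18 mo, with adjusted p from 0.0844 to 0.172, and of 2.02, 1.06 and 1.03 without it.

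The Trem2 signaling and lipid-associated list had all 18 genes tested, of which 10 were higher and 1 lower at 21 mo (median 1.10), and 9 lower and 1 higher with O304 (median -0.84). Spp1, which encodes osteopontin and is also made by tubules, was 614 to 742 CPM at 18 mo, 1235, 11162 and 12555 CPM at 21 mo and 649 to 1002 CPM with O304. Replicates 2 and 3 of the 21 mo group were far above replicate 1, as they were for the injured tubule sum. Apoe was 706, 1123 and 3298 CPM at 21 mo against 206 to 348 CPM at 18 mo (log2 2.56 ± 0.53 SE, adjusted p = 0.0626), and rose without replicate 3 (1.64, adjusted p = 0.0481). Clec7a, the receptor for fungal glucans, had log2 2.22 ± 0.52 (SE, adjusted p = 0.0702), and 1.39 without replicate 3. Lpl, lipoprotein lipase, was the 1 gene in the other direction, with 547, 176 and 182 CPM at 21 mo against 709 to 1387 CPM at 18 mo and 1020 to 1206 CPM with O304. Of the 4 MiT/TFE factors, which drive lysosomal genes, Mitf was higher at 21 mo at an unadjusted p under 0.05 (log2 0.70 ± 0.31 SE, adjusted p = 0.185, and 0.44 without replicate 3). Tfec, Tfeb and Tfe3 had log2 fold changes of 0.40, -0.11 and 0.06 (0.52, -0.24 and -0.05 without replicate 3). For O304 against 21 mo all 4 had negative log2 fold changes (median -0.23), none at an unadjusted p under 0.05.

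Among the Cd14 partners, 4 of 7 tested of 8 were higher at 21 mo (median 0.53) and 4 lower with O304 (median -0.53). Tlr4, the signaling receptor for lipopolysaccharide, was 2.77 to 3.72 CPM at 18 mo, 6.35, 8.92 and 15.1 CPM at 21 mo and 3.84 to 5.42 CPM with O304 (log2 1.66 ± 0.33 SE for 21 mo against 18 mo, adjusted p = 0.0626). All 3 groups were separate for Tlr4, as for Adgre1. Tlr2 was 7.76, 44.1 and 30.3 CPM at 21 mo (log2 2.21 ± 0.55 SE, adjusted p = 0.0775), and Lbp and Myd88 had log2 fold changes of 2.28 and 0.53 with adjusted p = 0.0932 and 0.115. Tlr4, Tlr2, Lbp and Myd88 had log2 values of 1.24, 2.11, 1.02 and 0.37 without 21 mo replicate 3.

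For Cd163 ligands and iron handling, 2 of 8 tested of 9 were higher at 21 mo (median 0.44), and 2 were lower with O304 (median -0.32). Hp, haptoglobin, which binds hemoglobin for uptake by Cd163, was 1.05, 1.42 and 2.72 CPM at 18 mo, 3.28, 6.71 and 46.5 CPM at 21 mo and 17.2, 3.93 and 15.3 CPM with O304. Like Cd163, it was higher in O304 replicates 1 and 3 than in replicate 2, and adipocytes also make it. Slc11a1, an iron transporter of phagosomes, had log2 2.09 ± 0.54 (SE, adjusted p = 0.0789) for 21 mo against 18 mo, and 1.02 without replicate 3. Hmox1, which degrades heme, was 36.7 to 54.0 CPM at 18 mo and 45.7 to 75.0 CPM at 21 mo (log2 0.42 ± 0.21 SE, adjusted p = 0.237, and 0.27 without replicate 3). Lrp1 and Ftl1 had log2 fold changes of -1.30 and 0.42 for O304 against 21 mo, with adjusted p = 0.230 and 0.342, and of -0.25 and 0.44 without replicate 3.

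Scavenger receptors and C-type lectins were higher at 21 mo for 4 of 7 tested of 9 (median 1.21), and 2 were lower with O304 although the list's median was 0.53. Msr1, the class A scavenger receptor, was 0.493 to 1.24 CPM at 18 mo, 4.08, 5.91 and 55.8 CPM at 21 mo and 0.894 to 3.44 CPM with O304 (log2 4.77 ± 1.10 SE, adjusted p = 0.0697, for 21 mo against 18 mo, and 2.61 without replicate 3). Clec4n was 1.67, 5.29 and 61.5 CPM at 21 mo against at most 3.57 CPM elsewhere. Clec10a, a lectin of Mrc1-bearing macrophages and dendritic cells, was 0.863 to 1.24 CPM at 18 mo, 2.48 to 3.53 CPM at 21 mo and 1.92, 4.05 and 7.07 CPM with O304. Stab1 had log2 -0.99 ± 0.44 for O304 against 21 mo (SE, adjusted p = 0.242), and -0.20 without 21 mo replicate 3.

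Alternative activation genes, of which 4 of 8 were tested, gave 3 higher at 21 mo (median 0.77) and, with O304, 1 higher and 1 lower (median -0.51). Chil3 was 64.4 CPM in 21 mo replicate 3 and between 0.700 and 2.16 CPM in the other 8 libraries. Retnla was 0 in all 3 of the 21 mo libraries, at most 0.113 CPM at 18 mo and 1.16, 0.715 and 3.82 CPM with O304, at least 11.2-fold higher than a floor of 3 counts per 21 mo library. Retnla, the 1 gene higher with O304, passed the filter through its O304 libraries alone (20, 12 and 60 counts, at most 2 elsewhere). The filter thus favoured that direction. Il13ra1 and Il4ra had log2 fold changes of 0.46 and 1.07 for 21 mo against 18 mo (adjusted p = 0.0929 and 0.138), and of 0.42 and 0.28 without replicate 3. Of 8 classical activation genes tested of 10, 5 were higher at 21 mo (median 1.22) and 2 lower with O304 (median -0.89). Tnf and Cd80 are among these 5, but no 18 mo library of either reached 10 counts. The filter thus favoured that direction for both. Tnf was low in all libraries, with 0.113 to 0.246 CPM at 18 mo, 0.602 to 2.66 CPM at 21 mo and 0.582 to 1.02 CPM with O304 (log2 2.89 ± 0.68 SE, adjusted p = 0.0704, for 21 mo against 18 mo, and 1.95 without replicate 3). Il1b reached 58.7 CPM in 21 mo replicate 3 and was 4.56 to 11.3 CPM elsewhere. Cd86 had log2 1.26 ± 0.40 (SE, adjusted p = 0.101), and 0.68 without replicate 3, and Cxcl10 was highest in 21 mo replicate 2, at 53.4 CPM.

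The list counts also depended on 21 mo replicate 3, and were recomputed without it, a choice made after the data were seen. In that fit 10% of all genes were higher at 21 mo and 6.95% lower with O304 at an unadjusted p under 0.05. Then the genes higher at 21 mo numbered 8 among resident macrophage genes (median 0.77), 4 among monocyte genes (median 0.86), 7 on the Trem2 and lipid-associated list (median 0.25) and 2 among growth and lineage factors (median 0.27). The counts for Cd14 partners, Cd163 ligands, scavenger receptors, alternative activation and classical activation were 3, 2, 3, 3 and 4. The genes lower with O304 numbered 4 of the resident macrophage list, 3 of the Trem2 and lipid-associated list, 2 of the Cd14 partners, 1 each of the growth and lineage, monocyte, scavenger, alternative and classical lists, and 0 of the Cd163 ligands. Fcgr1 and Apoe were the genes of these lists that passed an adjusted p under 0.05 in that fit, both higher at 21 mo.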

How the data were processed

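Kidney RNA of 9 mice was sequenced, 1 library per mouse. The authors filtered the reads, aligned them with HISAT2 2.0.5 and assigned them to genes with featureCounts 1.5.0-p3, versions per the submitters' processing notes, which name the builds GRCm38 and mm10. The count deposited for each gene is a whole number and was not normalized by the authors. FPKM, also deposited, were derived by the authors from count and gene length. The authors' own DESeq2 (1.20.0) fold change and p-value columns were not used. Strandedness is not given in the sources used here.

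edgeR 4.0.16 (R 4.3.3) quasi-likelihood tests were fitted to all 9 libraries with 3 group means and TMM scaling, after filterByExpr (minimum count 10, minimum total 15), leaving 6 residual degrees of freedom. Tests are two-sided with Benjamini-Hochberg adjustment over all genes tested. SE is the log2 fold change over the square root of F. Single comparisons of 3 mice with 3 used the exact permutation test. Log2 CPM used a prior count of 2.

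Named genes are the 9 members, up to 3 genes of each of 10 pathway lists with the smallest p in each of the first 2 comparisons, and those most correlated with the members. There were also 12 marker lists. The members and lists were chosen with earlier results of these data known. Scripts were tested on simulated data. Alternatives were DESeq2 1.42.0, limma 3.58.1 (voom, and trend on log2(FPKM + 1) or + 0.1 at a mean FPKM of at least 0.5), upper-quartile scaling, other filters, the 6 libraries compared, a replicate block and leaving out each library. Intervals cover counting error only where so stated.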

Additional observations from a re-analysis of the deposited data

How the results depend on the processing

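The counts of the 9 macrophage genes with an adjusted p under 0.05 were 0 in each comparison and depended on the tool, the filter and the library left out. Shares of all genes called in the same direction are in brackets. For 21 mo against 18 mo they were 8 at an unadjusted p (14.0%), 7 with DESeq2 on all 9 libraries (6.59%) and 5 with DESeq2 on the 6 libraries compared (3.82%). They were 6 with every gene of at least 1 count, where 576 of 28225 genes were called, both directions together. With limma voom with quality weights they were 8 (26.3%). On leaving out 1 library they ran from 0 to 8, the last without 21 mo replicate 1 (13.6%). For O304 against 21 mo they were 8 at an unadjusted p (12.4%), 4 and 4 with the DESeq2 fits (3.65% and 2.03%) and 5 with limma voom (19.8%). On leaving out 1 library these ran from 0 to 8, the last without 21 mo replicate 1 (12.6%). For O304 against 18 mo they were 2 at an unadjusted p (4.33%) and 3 with DESeq2 on the 6 libraries (2.53%), and 0 whichever library was left out. The count over all genes, both directions together, was 3 of 15902 with edgeR for 21 mo against 18 mo. It was 2023 of 17243 and 1004 of 16545 with the DESeq2 fits, 576 of 28225 with every gene of at least 1 count and 8409 of 15902 with limma voom. In the same order, it was 0, 896 of 17243, 467 of 17474, 17 and 6528 for O304 against 21 mo. For O304 against 18 mo it was 0, 118 of 14650, 795 of 14442, 0 and 415. Upper-quartile scaling, 10 counts in every library (7 of the 9 genes tested), edgeR on 6 libraries and limma-trend called none of the 9. The cause was not tested.

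No fold change of 21 mo against 18 mo changed sign. Adding the counts of Lyz1 to Lyz2, tried after the data were seen, gave log2 3.15, -2.13 and 1.02 in the 3 comparisons. Cd163 for O304 against 21 mo ran from -3.27 to 0.40 on leaving out 1 library, the last without 21 mo replicate 3. For O304 against 18 mo, Cd68 ran from -0.005 (without 18 mo replicate 2) to 0.447. Csf1r, 0.005 with all libraries, ran from -0.101 to 0.166 and was -0.003 with edgeR on 6 libraries.

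A fit with the replicate number as a replicate block called 0, 0 and 0 of the 9 genes in the 3 comparisons. The labels give the numbers no meaning, and deviations of same-numbered libraries correlated between -0.13 and 0.175. In 10 of 18 cases a library correlated best with its own number among the 3 libraries of another group, a count that was not tested.

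With 3 mice per group and 1 library that stands apart, the spread of the 21 mo group limits all comparisons that use it. Cd163 and Gpnmb at 18 mo rest on 9 and 17 counts in all.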

Other observations

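Other leukocyte lists did not follow the macrophage genes in every library. The 8 dendritic cell markers summed to 14.4 to 22.2 CPM at 18 mo, 15.2 to 18.7 CPM at 21 mo and 20.8 to 32.1 CPM with O304, so the 21 mo group was not above the 18 mo group, and Cd209d was at 0 in both. Of 7 dendritic cell markers tested, 2 were higher with O304 than at 21 mo at an unadjusted p under 0.05 in edgeR (1 without 21 mo replicate 3), against 8.27% of all genes, and none passed adjustment. The 8 T cell markers summed to at most 17.6 CPM at 18 mo, 38.1 CPM at 21 mo and 45.3 CPM with O304, and none of 8 had an unadjusted p under 0.05 in any comparison. The 8 B and plasma cell markers summed to 401 to 705 CPM at 18 mo and 605, 377 and 4533 CPM in 21 mo replicates 1, 2 and 3. With O304 they summed to 891, 2557 and 1708 CPM. Of 7 tested, 1 was higher and 1 lower with O304 than at 21 mo at an unadjusted p under 0.05, against 8.27% and 12.4% of all genes. Without 21 mo replicate 3, 4 were higher (median log2 2.03) and 0 lower, against 7.12% and 6.95% of all genes. Mast cell markers summed to between 9.45 and 20.2 CPM in all libraries, with 1 of 6 tested.

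In the neutrophil list, Mpo, Elane and Ngp were at 0 in the whole 18 mo group, and 5 of 10 were tested. S100a8 was 23.5, 6.65 and 21.3 CPM in 21 mo replicates 1, 2 and 3. All 5 were higher at 21 mo than at 18 mo at an unadjusted p under 0.05 (median log2 2.15), against 14.0% of all genes. Without replicate 3 all 5 were also higher at that threshold (median 2.04). Cxcr2 (6, 9 and 8 counts at 18 mo, 42, 21 and 48 at 21 mo) passed the filter mainly through the 21 mo libraries. Retnlg (7, 3 and 5 counts at 18 mo) passed it through later libraries alone. The filter thus favoured their direction, and the count of 5 is no independent support for it.

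Adipocyte markers were high in O304 replicates 1 and 3, where the 8 summed to 150 and 123 CPM. In O304 replicate 2 they summed to 10.3 CPM, near the 9.33 CPM of 18 mo replicate 3. All 5 tested of 8 were higher with O304 than at 21 mo and than at 18 mo at an unadjusted p under 0.05 (median log2 4.90 and 4.72), against 8.27% and 4.33% of all genes, and none passed adjustment. Plin1 (217, 19 and 84 counts) and Retn (240, 9 and 178 counts) passed the filter mainly through the O304 libraries where they were high. The filter thus favoured their direction, and the count of 5 is no independent support for it. Without 21 mo replicate 3 all 5 were higher in both (median 6.12 and 4.69). Adipoq was 21.6, 1.97 and 15.1 CPM in the O304 libraries and at most 1.41 CPM in the others. Endothelial markers summed to 404 to 600 CPM at 18 mo, 264 to 501 CPM at 21 mo and 462 to 742 CPM with O304, and podocyte markers to 215 to 311, 220 to 655 and 248 to 405 CPM.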
